A study of Mus musculus with 9 samples.

Results

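The comparison described here is of the livers of 3 mice that lived in microgravity on the International Space Station for 30 days (MG mice) with the livers of 3 control mice kept on Earth (GC mice). It takes 6 of the 9 libraries of the series, chosen by their labels, and all genes of the count table were considered. All were wild-type (WT) male mice of the strain C57BL/6J, for which the labels give no age, and the label "liver cells (homogenate)" was given to a piece of whole liver from each mouse. The remaining 3 libraries, from mice flown under artificial gravity of 1 g (A1G mice), entered the model for the spread between mice and are given beside MG vs. GC as values only. Mice are named by group and replicate number (GC1 to GC3, A1G1 to A1G3, MG1 to MG3). The MG mice were launched, landed and dissected on Earth after splashdown, whereas the ground experiment was run at another site and months later, with less CO2 in the air. The paper also names radiation in space and the transport from landing to dissection as differences from the ground. Gravity, radiation, launch and landing, transport, site, date and CO2 therefore cannot be told apart in MG vs. GC. The series was made to follow hepatic sulfur compounds after spaceflight.

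The liver turns surplus sugar into fat. Glucose and fructose pass through glycolysis to pyruvate and citrate, the cytosolic citrate is cleaved to acetyl-CoA, and fatty acid synthase joins these units into palmitate with NADPH from malic enzyme and the pentose phosphate pathway. In the fasted state the direction turns, and the nuclear receptor PPAR alpha raises the enzymes that oxidise fatty acids. Hepatocytes also fold most plasma proteins in their endoplasmic reticulum (ER) and oxidise drugs, steroids and bile acids with cytochrome P450 enzymes, many of which differ in level between male and female mice.

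Of 34866 genes in the table, 13193 had enough reads to be tested, and they held 99.9% of all estimated counts. In edgeR's quasi-likelihood test, 439 genes passed a Benjamini-Hochberg adjusted p of 0.05 in MG vs. GC, which is 3.33% of the genes tested. Of these, 155 were higher in MG mice (1.17%) and 284 were lower (2.15%). In what follows a gene is said to rise or to fall only where it passed this test, and a log2 fold change is that of MG over GC, given ± its standard error with 3 mice per group. CPM is the count scaled to the size of the library after adjustment of the libraries by trimmed mean of M values (TMM). The CPM of the MG mice and of the GC mice did not overlap for 438 of the 439 genes, and for 22.7% of all genes tested. Among the genes that passed, the median size of the change was 0.93 on the log2 scale, and 202 of them, 57 higher and 145 lower, also changed by at least 1 on the log2 scale. At an unadjusted p under 0.05 the count was 2438. The number of genes that passed depended on single mice, and was 181 without GC2, 191 without MG2, 196 without MG1 and 249 without GC1. It rose to 570 without GC3 and to 642 without A1G1, a mouse outside the comparison that entered the pooled spread. For the gene lists below, the libraries on which a count most depended are named with it. Counts of members that rose or fell are to be read against the 1.17% and 2.15% of all genes.

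**Figure D1:**
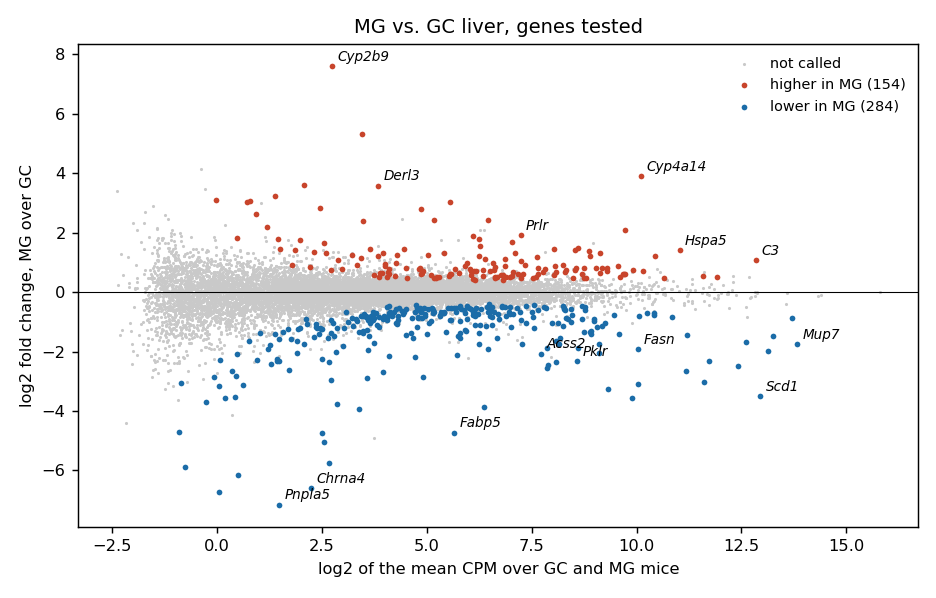
Log2 fold change of MG over GC (vertical axis) against the log2 of the mean CPM over GC and MG mice (horizontal axis), 1 point per gene tested. Red (higher in MG) and blue (lower in MG) points passed an adjusted p of 0.05 in edgeR, and Gm45808, the 1 higher gene with no read in GC mice, is not drawn. Scd1, at -3.50, stands out among the most abundant genes that fell, and Cyp4a14, at 3.89, among the abundant genes that rose.

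The libraries held between 13189515 (MG3) and 23506273 (GC1) estimated counts. The most abundant 10 genes took 18.6 to 21% of the counts in GC mice and 16.1 to 16.9% in MG mice, and the mitochondrially encoded proteins took 6.25 to 6.95% in both. The median log2 fold change over all genes was 0.00 with TMM, 0.14 with the library total alone and 0.24 on log2(TPM + 1) values (transcript abundance scaled to transcript length and library) in limma. The medians of gene lists below are to be read against 0.00 with TMM and against 0.24 on TPM values. The share of higher genes among those that passed was 35.3%, 64.6% and 81.2% with these 3 scalings. Hepatocyte markers summed to 52800 to 61540 TPM in GC mice and 62400 to 70340 TPM in MG mice, and 1 of 8 was lower in MG mice. None of 11 Kupffer cell markers (186 to 281 TPM in GC mice, 223 to 231 TPM in MG mice) passed in edgeR, against 2 at an unadjusted p under 0.05 and 0 in DESeq2. Neutrophil markers summed to 3.52 to 11.4 TPM in GC mice and 16.6 to 30.3 TPM in MG mice with 2 of 10 reaching the test, none passing and the defining *Ly6g* at 0, and lymphocyte markers summed to 6.11 to 15.6 and 4.40 to 6.53 TPM, with 4 of 12 tested and 1 lower. Erythroid markers summed to 601 to 824 TPM in GC mice and 421 to 667 TPM in MG mice. The CPM of all 5 tested was lower in every MG mouse than in every GC mouse. Of all genes tested, 22.7% did not overlap, in either direction. None of the 5 passed in edgeR, against 3 at an unadjusted p under 0.05 and 5 lower in DESeq2. The cholangiocyte list, which includes *Krt8* and *Krt18*, summed to 222 to 273 and 215 to 249 TPM, with 6 of 7 tested below 0 and 1, *Krt8*, lower. How much of this sum came from cholangiocytes was not measured. Sinusoidal endothelial markers summed to 78.6 to 122 and 118 to 145 TPM, with 9 of 10 above 0 and none passing in edgeR, against 3 higher at an unadjusted p under 0.05 and 0 in DESeq2. The part of these cell types in the results below was not tested. In the adipocyte list, *Adipoq* and *Lep* were at 0 in all 6 mice and the sum was 0.662 to 7.85 TPM in GC mice, highest in GC1, and 0.552 to 2.51 TPM in MG mice. In the pancreas and gut list, the pancreatic genes *Prss2*, *Cpa1* and *Pnliprp1* were at 0 and the sum was 109 to 131 and 89.9 to 146 TPM, nearly all of it from *Fabp2*, a fatty acid-binding protein that overlapped between the groups (89.8 to 146 TPM in MG mice). In bulk tissue, fewer cells of a type and less RNA per cell cannot be told apart.

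Fatty acid synthesis was, of the 63 gene lists examined, the one with the largest share of genes that fell, 13 of 16, against 2.15% of all genes. All 16 had a log2 fold change below 0, also on TPM values, with a median of -1.57 where that of all genes was 0.00. Together the 16 genes took 1.86%, 2.31% and 2.29% of all counts in the 3 GC mice and 0.312%, 0.440% and 0.403% in the 3 MG mice. Every GC mouse thus lay far above every MG mouse, and with 3 mice per group the exact two-sided permutation p was 0.1, the smallest possible. In A1G mice the share was 0.820%, 1.33% and 0.952%, between the other groups without overlap.

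Every step of the path from citrate to desaturated fat had members that fell. *Acly* (chromosome 11: 100476353-100528000, GRCm38), which cleaves citrate to acetyl-CoA, was at 564, 603 and 667 CPM in GC mice and 151, 166 and 183 CPM in MG mice (-1.87 ± 0.21, adjusted p = 0.000848 in edgeR). *Acss2* (chromosome 2: 155517948-155585724), which makes acetyl-CoA from acetate, was at 326, 377 and 325 CPM in GC mice and 84.0, 88.6 and 72.3 CPM in MG mice. Its change of -2.07 ± 0.14 had the smallest adjusted p of all genes, 6.72e-05 in edgeR, a value it shared with *Fasn*. The MG mice lay close together in each of these genes and far from every GC mouse. *Fasn* (chromosome 11: 120805846-120824547), fatty acid synthase, was at 1769, 1575 and 1623 CPM in GC mice and 436, 436 and 434 CPM in MG mice (-1.93 ± 0.14). *Acaca*, the acetyl-CoA carboxylase that supplies malonyl-CoA to it, fell by 1.20 ± 0.12 (adjusted p = 0.000506), and *Me1*, the malic enzyme that makes NADPH, was at 470, 395 and 440 CPM and 118, 123 and 151 CPM (-1.74 ± 0.18, adjusted p = 0.000506). The elongase *Elovl6*, which takes palmitate to stearate, was at 348, 558 and 444 CPM in GC mice and 92.2, 78.0 and 94.0 CPM in MG mice.

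The desaturases followed the same order. *Scd1* (chromosome 19: 44394455-44407879), which places the double bond of oleate and was one of the most abundant transcripts of the GC liver, was at 12362, 15938 and 15424 CPM in GC mice and 538, 1946 and 1385 CPM in MG mice. Its log2 fold change was -3.50 ± 0.42 (adjusted p = 0.00133 in edgeR), and the MG mice differed among themselves more than in the genes above. *Fads2* and *Fads1*, which desaturate polyunsaturated fatty acids, fell by 1.33 ± 0.13 (adjusted p = 0.000388) and 1.02 ± 0.13 (adjusted p = 0.00156). *Thrsp*, a small protein that promotes fatty acid synthesis, was at 2442, 1784 and 1002 CPM in GC mice and 182, 182 and 78.1 CPM in MG mice. The groups did not overlap although the GC mice themselves were spread widely. The elongases *Elovl5* (-1.40 ± 0.20, adjusted p = 0.00352) and *Elovl3* (-2.57 ± 0.41, adjusted p = 0.00634) fell as well, and *Slc25a1*, which exports citrate from the mitochondrion, fell least of those named (-0.67 ± 0.12, adjusted p = 0.00912). The number of the 16 genes that fell was 12 without MG1, where *Slc25a1* no longer passed, and 13 without any other library.

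**Figure D2:**
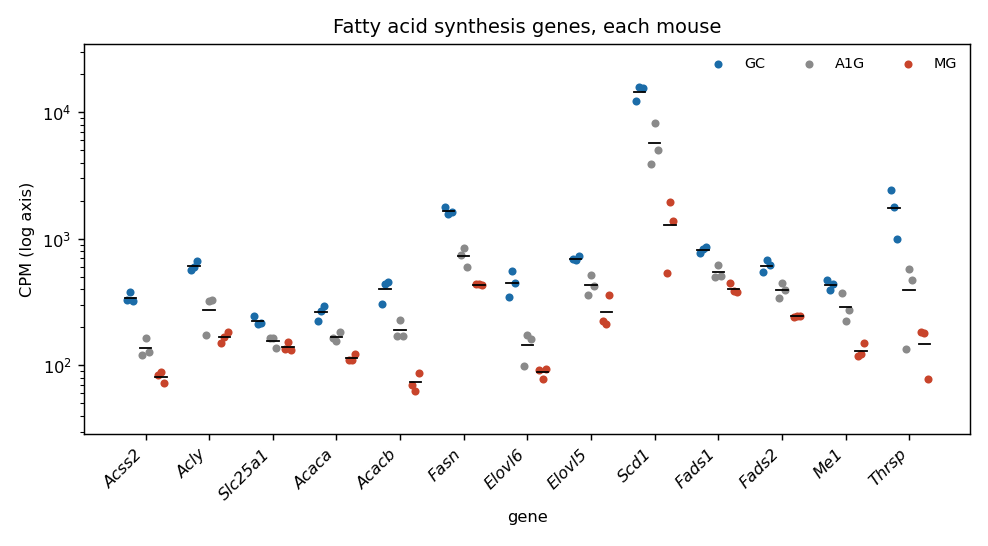
CPM on a log axis of 13 genes of fatty acid synthesis (horizontal axis), 1 point per mouse for GC, A1G and MG mice, with the group mean as a bar. In Fasn the 3 MG mice lie at 434 to 436 CPM and the 3 GC mice at 1575 to 1769 CPM, and in none of the genes shown do the MG and GC mice overlap.

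None of the 15 regulators of lipid synthesis passed in edgeR, against 4 lower and 0 higher at an unadjusted p under 0.05 and 0 in DESeq2 and in limma on log2(TPM + 1), and 1 was higher without GC3. Their median was -0.08 with TMM and 0.22 on TPM values, where that of all genes was 0.00 and 0.24. *Srebf1*, which encodes the SREBP1 factor that switches on lipogenic enzymes, was at 302, 282 and 323 CPM in GC mice and 310, 208 and 140 CPM in MG mice. One MG mouse was thus within the range of the GC mice (-0.46 ± 0.22, adjusted p = 0.289 in edgeR). *Mlxipl*, the carbohydrate-sensing factor ChREBP (-0.30 ± 0.14, adjusted p = 0.285), *Nr1h3*, the oxysterol receptor LXR alpha (0.03 ± 0.10, adjusted p = 0.931), and *Insig1*, which holds SREBPs in the ER (-0.28 ± 0.12, adjusted p = 0.238), did not pass either. The activity of these proteins was not measured.

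Genes for the binding and storage of fat fell in part. *Fabp1*, the abundant fatty acid-binding protein of hepatocytes, was at 4340, 3438 and 2662 CPM in GC mice and 1253, 1030 and 1529 CPM in MG mice (-1.45 ± 0.21, adjusted p = 0.00349 in edgeR). *Fabp5*, a second member of this family, was at 70.8, 144 and 76.8 CPM in GC mice and 4.10, 4.02 and 2.71 CPM in MG mice, a fall of 4.73 ± 0.46 on the log2 scale (adjusted p = 0.000388). Both fell without overlap, whereas *Cd36*, a fatty acid translocase, was at 29.2 to 50.4 CPM in GC mice and 53 to 121 CPM in MG mice and did not pass (1.14 ± 0.33, adjusted p = 0.0849). Of 18 genes for fatty acid uptake, binding and activation 4 fell, against 2.15% of all genes, and none rose (1 without A1G1). Of 26 genes for triglyceride assembly, droplets and lipases 3 fell and none rose, with a median of -0.37 and 24 members below 0 (on TPM values -0.06 and 17 of 26). *Pnpla3*, a lipid droplet lipase, was at 18.8, 9.14 and 6.22 CPM in GC mice and 0.347, 0.539 and 0.0733 CPM in MG mice. The related *Pnpla5* was read 130, 156 and 53 times in GC mice and 2, 0 and 0 times in MG mice, too few for a fold.

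Some genes of sugar breakdown fell. Of 22 genes of glycolysis and fructose entry 8 fell, against 2.15% of all genes, and none rose, with a median of -0.43 and 21 members below 0. On TPM values the median was -0.05, where that of all genes was 0.24, and 14 of 22 lay below 0. *Pklr* (chromosome 3: 89136142-89146784), the liver pyruvate kinase, was at 649, 674 and 601 CPM in GC mice and 92.8, 131 and 160 CPM in MG mice (-2.33 ± 0.26, adjusted p = 0.000808 in edgeR). *Khk*, which phosphorylates fructose, was at 762, 719 and 589 CPM in GC mice and 254, 278 and 298 CPM in MG mice (-1.32 ± 0.20, adjusted p = 0.00456). In both genes all MG mice lay far below all GC mice. *Eno1* (enolase, -0.98 ± 0.11, adjusted p = 0.000808), *Gpi1* (glucose 6-phosphate isomerase, -0.83 ± 0.11, adjusted p = 0.00205) and *Pdk1*, a kinase that turns off pyruvate dehydrogenase, fell too. *Pdk1* was even within groups, at 138, 139 and 139 CPM in GC mice and 73.0, 69.8 and 77.5 CPM in MG mice (-0.92 ± 0.09, adjusted p = 0.000506). Without MG2 the number of the 22 genes that fell was 5.

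The pentose phosphate and NADPH genes had 4 lower and 1 higher of 14, and the genes of glycogen synthesis and breakdown 3 lower and none higher of 16. Of all genes 2.15% were lower and 1.17% higher. *Pgd*, which makes NADPH in the pentose phosphate pathway, was at 67.2, 62.9 and 56.6 CPM in GC mice and 21.1, 23.1 and 30.4 CPM in MG mice (-1.33 ± 0.16, adjusted p = 0.00156 in edgeR). *Tkt*, transketolase, was at 207, 173 and 160 CPM and 85.5, 79.3 and 72.7 CPM (-1.18 ± 0.16, adjusted p = 0.00259). *G6pdx*, which starts this pathway, was read at only 4.81 to 11.1 CPM in GC mice and 2.20 to 4.51 CPM in MG mice and did not pass (-1.14 ± 0.32, adjusted p = 0.0828). *Pygl*, the liver glycogen phosphorylase, fell from 639, 665 and 696 CPM to 330, 338 and 389 CPM (-0.92 ± 0.14, adjusted p = 0.00507), and *Gys2*, the liver glycogen synthase, fell by 0.81, so that both directions of glycogen turnover had a member that fell. Without MG2 the number of glycogen genes that fell was 1. The medians of both lists, -0.24 and -0.25, were 0.01 and 0.07 on TPM values, where that of all genes was 0.24. The 1 pentose phosphate gene that rose, *Idh2*, did not pass without GC2, GC3, MG1 or MG2. Of 22 gluconeogenesis and fasting genes 1 fell, 3 without A1G1 and none without GC2, MG1 or MG2.

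Cholesterol synthesis changed at some steps. Of 23 genes for cholesterol synthesis and uptake 7 fell, against 2.15% of all genes, and none rose. The median was -0.23, and on TPM values it was 0.02, where that of all genes was 0.24. *Pmvk*, phosphomevalonate kinase, was at 70.2, 89.6 and 79.0 CPM in GC mice and 34.2, 31.7 and 26.0 CPM in MG mice (-1.38 ± 0.15, adjusted p = 0.000808 in edgeR). *Dhcr7*, which makes cholesterol from its last precursor, fell by 1.12 ± 0.16 (adjusted p = 0.00375), and *Acat2*, the cytosolic thiolase that starts the pathway, by 0.79 ± 0.12 (adjusted p = 0.00397). *Sqle*, squalene epoxidase, was at 125, 129 and 105 CPM in GC mice and 129, 76.4 and 96.3 CPM in MG mice, which overlapped (-0.25 ± 0.19, adjusted p = 0.533). The number that fell was 3 without MG2 and 4 without MG1.

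Genes of fatty acid oxidation moved little beside those of synthesis. Of 31 genes of beta-oxidation and ketogenesis 4 rose and none fell, with a median of 0.03. On TPM values the median was 0.29 with 28 of 31 above 0, where that of all genes was 0.24. In limma on log2(TPM + 1) 9 of them were higher and 0 lower. Leaving out single mice gave 0 (GC2 or MG3), 1 (GC1 or MG1) or 2 (GC3 or MG2) that rose, and 2 that fell without A1G1. Among them *Acadm*, which starts the oxidation of medium-chain fatty acids, was at 306, 263 and 255 CPM in GC mice and 444, 480 and 510 CPM in MG mice (0.80 ± 0.16, adjusted p = 0.0215 in edgeR). *Cpt1a*, which admits long-chain fatty acids to the mitochondrion, had nearly the same mean in both groups (280 to 376 and 287 to 416 CPM, 0.01 ± 0.16, adjusted p = 0.988).

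Of 21 known targets of PPAR alpha 4 rose and 1, *Fabp1*, fell, against 1.17% and 2.15% of all genes. The median was 0.44 (0.70 on TPM values, with 19 of 21 above 0). The count of higher genes was 1 without GC2, GC3 or any one MG mouse. The gene that held in all these was *Cyp4a14* (chromosome 4: 115486200-115496142), which hydroxylates the ends of fatty acids. It was at 160, 128 and 127 CPM in GC mice and 2103, 1626 and 2427 CPM in MG mice, a rise of 3.89 ± 0.59 on the log2 scale (adjusted p = 0.00434 in edgeR). The A1G mice had 6483, 1084 and 1275 CPM, so that one of them lay above every MG mouse. *Cyp4a10*, its neighbour, was at 512, 272 and 180 CPM and 1433, 1178 and 1492 CPM (2.09 ± 0.50, adjusted p = 0.0417). The receptor gene *Ppara* itself was at 56.6, 88.5 and 150 CPM in GC mice and 116, 112 and 128 CPM in MG mice and did not pass (0.27 ± 0.26, adjusted p = 0.623).

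Many genes of the folding machinery of the ER rose. Of 27 chaperones and folding enzymes 13 rose, against 1.17% of all genes, and 1 fell. The median was 0.73 (1.00 on TPM values) and 22 members were above 0. *Hspa5* (chromosome 2: 34771970-34777547), the main chaperone BiP, was at 1170, 1158 and 1104 CPM in GC mice and 3231, 3777 and 2056 CPM in MG mice (1.40 ± 0.28, adjusted p = 0.019 in edgeR). *Hsp90b1*, the ER form of HSP90, was at 817, 836 and 853 CPM in GC mice and 1849, 2079 and 1860 CPM in MG mice (1.21 ± 0.18, adjusted p = 0.00397). In both genes the GC mice were nearly equal and every MG mouse was well above them.

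The disulfide isomerases *Pdia4* (279, 231 and 272 CPM in GC mice, 648, 806 and 580 CPM in MG mice) and *Pdia3* (472, 438 and 450 CPM, then 772, 832 and 805 CPM) rose by 1.38 ± 0.19 (adjusted p = 0.0026) and 0.82 ± 0.13 (adjusted p = 0.00619) in edgeR. The J-domain helpers of BiP, *Dnajb11* (0.90 ± 0.12, adjusted p = 0.00242) and *Dnajc3* (0.82 ± 0.13, adjusted p = 0.00556), and the lectin chaperone *Calr* (0.75 ± 0.12, adjusted p = 0.00674) rose as well. *Canx*, the membrane-bound partner of calreticulin, was at 304, 342 and 395 CPM and 467, 462 and 446 CPM, without overlap but not past the test (0.40 ± 0.12, adjusted p = 0.0962). The member that fell was *Fkbp11*, a prolyl isomerase of the ER, at 7.62, 9.41 and 6.93 CPM in GC mice and 3.41, 3.33 and 3.37 CPM in MG mice. Within the MG group, replicate 3 was the lowest of the 3 for *Hspa5*, *Hyou1*, *Manf* and *Syvn1*. Without GC2 the number that rose was 8. *Hspa5* no longer passed when GC1, GC2, MG1 or MG2 was left out.

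Of 22 genes of ER-associated degradation 4 rose and none fell, and 20 were above 0 with a median of 0.29. The count fell to 1 when GC1, GC2 or MG1 was left out and to 0 when MG2 was. Of 24 stress-response transcription factors and amino acid shortage genes none passed in edgeR, while 8 higher and 1 lower had an unadjusted p under 0.05, DESeq2 called 1 higher and edgeR 1 higher without GC3, A1G1 or MG3. Of 22 heat shock proteins none passed in edgeR, against 2 lower at an unadjusted p under 0.05, 0 in DESeq2 and 1 lower without GC3 or MG2. Of 31 genes for ER translocation and export none rose and 2 fell, and the 2 were lost without GC2 or any one MG mouse. *Xbp1* (205, 213 and 205 CPM in GC mice, 279, 300 and 209 CPM in MG mice, 0.34 ± 0.13, adjusted p = 0.193 in edgeR) and *Atf6* (0.40 ± 0.13, adjusted p = 0.109), the factors of the unfolded protein response, did not pass. *Ddit3*, the gene of the stress factor CHOP, was at 10.3, 9.23 and 4.40 CPM in GC mice and 20.5, 22.6 and 6.52 CPM in MG mice, which overlapped (1.06 ± 0.44, adjusted p = 0.229). Splicing of *Xbp1* and cleavage of ATF6 were not measured.

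**Figure D3:**
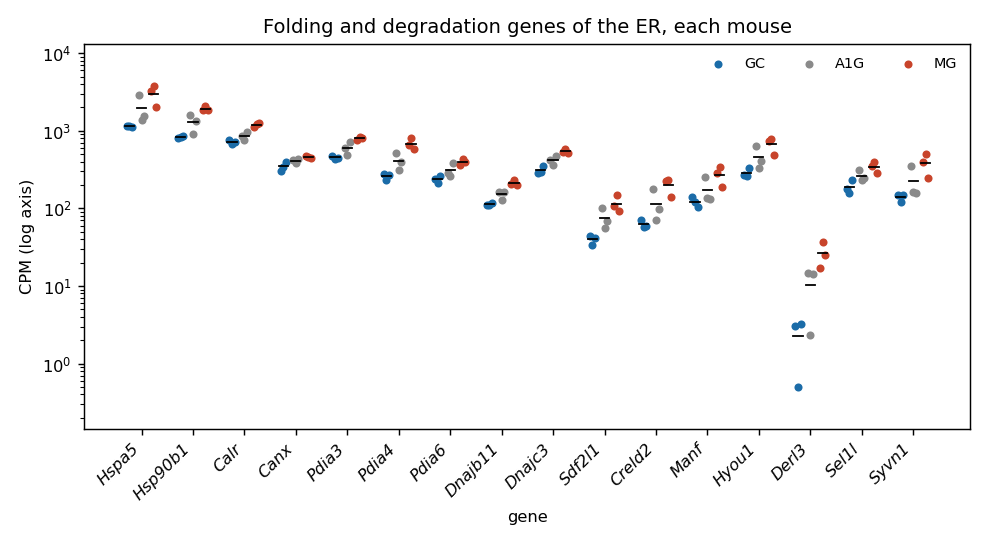
CPM on a log axis of genes for folding and degradation of proteins in the ER (horizontal axis), 1 point per mouse for GC, A1G and MG mice, with the group mean as a bar. In Hsp90b1 the GC mice lie at 817 to 853 CPM and the MG mice at 1849 to 2079 CPM, and in Hspa5 the MG mice, at 2056 to 3777 CPM, spread more than the GC mice.

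Many ER chaperone genes are known to share the ER stress response element (ERSE) in their promoters, CCAAT and CCACG with 9 bases between them, and it was searched here in the RefSeq promoters of GRCm38.p6, from 250 bases before to 50 bases after each start site, as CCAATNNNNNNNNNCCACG on both strands. It was found for 37 of 27025 genes in the promoter table (0.137%) and for 17 of the 10100 tested genes that had a promoter there (0.168%). Of the 27 chaperones and folding enzymes, 22 had a promoter and 7 of these (31.8%) held the element, namely *Hspa5*, *Hsp90b1*, *Calr*, *Canx*, *Pdia6*, *Dnajc3* and *Creld2*, all but *Canx* among the genes that rose. In ER-associated degradation 2 of 18 held it, *Syvn1* and *Derl3*. Windows around the element are shown for 6 genes that rose, with its 2 outer parts in capitals (CGTGG and ATTGG where it lies on the other strand), 5′ to 3′ on the strand of the gene.
Hspa5, chr2:34772000-34772068, + strand: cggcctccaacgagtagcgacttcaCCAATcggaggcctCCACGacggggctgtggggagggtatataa
Hsp90b1, chr10:86705613-86705681, - strand: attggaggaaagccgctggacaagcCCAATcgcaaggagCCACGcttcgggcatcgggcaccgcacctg
Dnajc3, chr14:118937802-118937870, + strand: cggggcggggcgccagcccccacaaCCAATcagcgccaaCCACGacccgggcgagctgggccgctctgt
Calr, chr8:84847050-84847118, - strand: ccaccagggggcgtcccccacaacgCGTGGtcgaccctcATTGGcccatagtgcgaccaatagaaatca
Pdia6, chr12:17266466-17266534, + strand: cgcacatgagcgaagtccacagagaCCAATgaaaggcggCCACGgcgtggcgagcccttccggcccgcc
Creld2, chr15:88819495-88819563, + strand: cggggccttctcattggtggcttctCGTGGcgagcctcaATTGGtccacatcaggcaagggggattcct

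Of the 17 tested genes that held the element, 9 rose, 1 fell and 7 did not pass, and 15 were above 0 with a median of 0.73. Besides the ER genes, the 2 others that passed were *Acnat2*, a peroxisomal acyltransferase that rose, and *Acacb*, the mitochondrial acetyl-CoA carboxylase, the one that fell (304, 437 and 459 CPM in GC mice, 70.1, 62.4 and 87.6 CPM in MG mice). Their windows are shown because they hold the same letters and lie in genes of fat metabolism that moved in opposite directions.
Acnat2, chr4:49408192-49408260, - strand: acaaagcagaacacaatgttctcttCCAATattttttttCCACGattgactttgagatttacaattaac
Acacb, chr5:114165406-114165474, + strand: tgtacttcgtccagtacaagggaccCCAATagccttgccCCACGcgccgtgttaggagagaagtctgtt
The *Creld2* element lies in a stretch shared with the promoter of *Alg12*, which runs the other way and did not pass (0.40 ± 0.23, adjusted p = 0.391 in edgeR). The other elements were searched in the same windows on both strands. The CCAAT box alone, which is part of the ERSE, was in 18 of the 22 chaperone promoters and in 41.1% of all. Of the 16 fatty acid synthesis genes 13 had a promoter in the table, and CCAAT was in 9 of them, the E-box CACGTG in 2 (8.09% of all promoters) and the sterol regulatory core TCACNCCAC in 0 (1.44% of all). The PPAR element, a pair of AGGTCA repeats with any 1 base between them (DR1), was in 0 of 14 promoters of PPAR alpha targets and in 0.0481% of all. A match of letters is a description of the promoter and was not measured as binding, and elements farther from the start site were outside the window.

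The cytochrome P450 enzymes split within families. Of 32 tested Cyp2 genes 9 rose and 3 fell, against 1.17% and 2.15% of all genes. The family as a whole took 1.09 to 1.24% of all counts in GC mice and 1.495 to 1.69% in MG mice. *Cyp2c37* (chromosome 19: 39992424-40012243), an epoxygenase of arachidonic acid in the mouse, was at 216, 207 and 186 CPM in GC mice and 516, 583 and 506 CPM in MG mice (1.40 ± 0.14, adjusted p = 0.000506 in edgeR). Its neighbours in the Cyp2c cluster *Cyp2c54* (238, 202 and 174 CPM, then 607, 580 and 537 CPM, 1.49 ± 0.18, adjusted p = 0.0015), *Cyp2c38* (1.79 ± 0.21, adjusted p = 0.0013) and *Cyp2c29* (0.87 ± 0.14, adjusted p = 0.00728) rose as well. In A1G mice *Cyp2c37* and *Cyp2c54* were at 266 to 379 CPM and 290 to 473 CPM, above all GC mice and below all MG mice. *Cyp2b10*, the classic target of the drug-sensing receptor CAR, was low in all mice, at 0.440, 0.367 and 0.293 CPM in GC mice and 2.08, 3.13 and 4.03 CPM in MG mice (3.05 ± 0.42, adjusted p = 0.00266), and *Cyp2b9* was read 2, 2 and 0 times in GC mice and 116, 221 and 300 times in MG mice. Among the genes that fell were *Cyp2d9* (1552, 1231 and 1309 CPM, then 813, 835 and 698 CPM, -0.80 ± 0.15, adjusted p = 0.0126) and *Cyp2d40* (-1.39 ± 0.25, adjusted p = 0.0104). The Cyp2c and Cyp2d genes are close copies of one another, so reads can be shared out among them. The number of Cyp2 genes that fell was 0 without MG1 and 1 without MG3.

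The list of the receptors CAR and PXR with their Cyp2b and Cyp3a targets had 21 genes in the table, of which 15 were tested. Of these 5 rose, against 1.17% of all genes, and none fell, with a median of 0.61 and 14 above 0. The same limit holds for members near 0 in GC mice. The count was 3 without GC2 or MG1 and 8 without A1G1. The receptor genes did not pass. *Nr1i3* (CAR) was at 255, 201 and 171 CPM in GC mice and 306, 236 and 304 CPM in MG mice (0.43 ± 0.16, adjusted p = 0.184 in edgeR), and *Nr1i2* (PXR) at 64.9 to 80.8 CPM and 62.7 to 70.6 CPM (-0.14 ± 0.12, adjusted p = 0.581). In contrast *Cyp1a2* (chromosome 9: 57676937-57683703), the caffeine-metabolising enzyme of hepatocytes around the central vein, fell from 448, 464 and 308 CPM to 154, 144 and 93.4 CPM (-1.64 ± 0.22, adjusted p = 0.00242). It was 1 of 2 genes that fell among 21 pericentral and WNT zonation genes, whose median was -0.42 with 17 below 0 (-0.13 and 12 of 21 on TPM values), and 1 fell without GC1, GC2 or MG2.

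The flavin-containing monooxygenases *Fmo2* and *Fmo1* rose, by 1.89 ± 0.34 (adjusted p = 0.0112) and 0.68 ± 0.14 (adjusted p = 0.0224 in edgeR), *Fmo2* not past the test without GC1 and *Fmo1* not without GC2, MG1 or MG2. The UDP-glucuronosyltransferases and the carboxylesterases had members in both directions. Of 18 UDP-glucuronosyltransferases 2 rose, both lost without GC2 or MG2, and 4 fell, against 1.17% and 2.15% of all genes. Among those that fell were *Ugt2b1* (756, 797 and 684 CPM, then 328, 362 and 292 CPM, -1.19 ± 0.15, adjusted p = 0.00156) and *Ugt2b38* (20.0, 20.6 and 18.4 CPM, then 0.578, 2.55 and 0.586 CPM, -3.92 ± 0.50, adjusted p = 0.00185). Of 15 carboxylesterases, which hydrolyse esters of drugs and lipids, 1 rose and 5 fell, against 1.17% and 2.15% of all genes. *Ces1b* was the one that rose (1.10 ± 0.19, adjusted p = 0.00956), and *Ces2c* fell from 116, 96.5 and 45.8 CPM to 17.8, 23.9 and 18.1 CPM (-2.11 ± 0.29, adjusted p = 0.00267). The number of carboxylesterases that fell was 2 without GC1, GC2 or MG2 and 3 without MG1. Of 26 uptake and efflux transporters only *Abcg2* passed, and it fell by 0.70 but did not pass without any one GC mouse, any one MG mouse or A1G3, while 5 fell without A1G1.

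**Figure D4:**
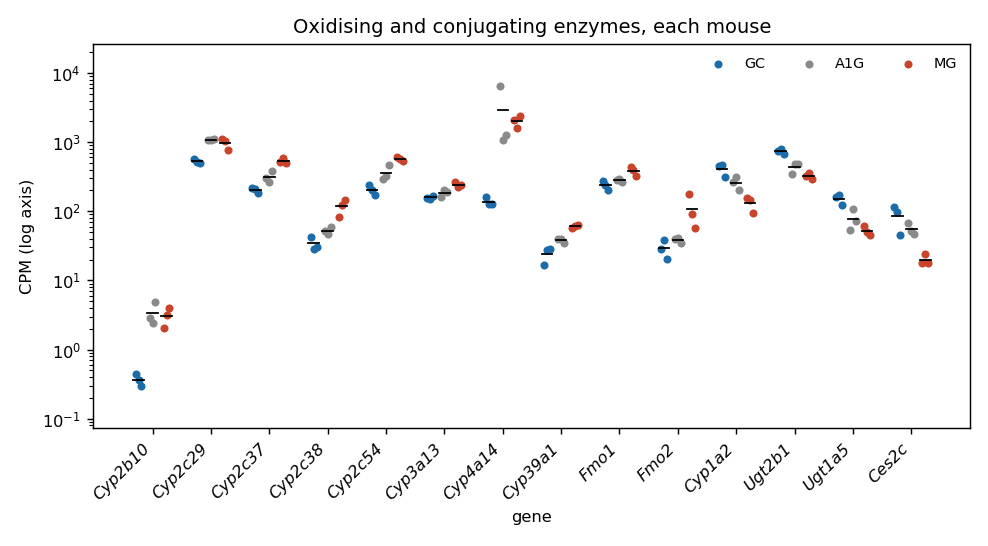
CPM on a log axis of cytochrome P450, monooxygenase, glucuronosyltransferase and carboxylesterase genes (horizontal axis), 1 point per mouse for GC, A1G and MG mice, with the group mean as a bar. Cyp2c37 lies at 186 to 216 CPM in GC mice and 506 to 583 CPM in MG mice, and Cyp1a2 at 308 to 464 CPM and 93.4 to 154 CPM.

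Several of these enzymes belong to the sex-biased genes of the mouse liver, which follow the pattern of growth hormone release. Of 18 tested female-biased genes 12 rose, against 1.17% of all genes, and none fell (7 rose without MG2), with a median of 2.00. Of 37 male-biased genes none rose and 22 fell (13 without MG1), against 2.15% of all genes, with a median of -1.19. *A1bg*, a secreted protein expressed in female liver, was at 0.244, 0.184 and 0.176 CPM in GC mice and 1.44, 1.62 and 2.20 CPM in MG mice (3.11 ± 0.48, adjusted p = 0.00507 in edgeR). These lists overlap with the P450 and UDP-glucuronosyltransferase lists, since *Cyp2b9*, *Cyp4a14* and *Ugt2b38* also stand there. *Mup7*, one of the major urinary proteins that males excrete, was at 29317, 20957 and 16983 CPM in GC mice and 7458, 6777 and 5589 CPM in MG mice (-1.76 ± 0.21, adjusted p = 0.00111). Of 17 genes of the growth hormone and prolactin receptor and IGF axis 2 rose and 1 fell, against 1.17% and 2.15% of all genes. The number that rose was never below 2 with a library left out, and none fell without GC1, GC2, A1G3, MG1 or MG2. The receptor *Ghr* (390, 348 and 359 CPM, then 327, 321 and 330 CPM, -0.17 ± 0.11, adjusted p = 0.47) and *Igf1* (0.24 ± 0.12, adjusted p = 0.326) did not pass, and of 17 transcription factors of this pattern none passed, while 4 higher and 1 lower had an unadjusted p under 0.05, and DESeq2 called 1 higher.

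Some bile acid genes passed the test. *Cyp7a1*, at the main synthetic step, did not, which does not show that it was unchanged. Of 24 genes of bile acid synthesis and the FXR axis 1 rose and 2 fell, and none fell without GC1, GC2 or MG3. *Cyp39a1*, a hydroxylase of oxysterols, was at 17.0, 27.3 and 28.4 CPM in GC mice and 57.6, 60.5 and 64.1 CPM in MG mice (1.33 ± 0.17, adjusted p = 0.00191 in edgeR). *Cyp7a1*, the rate-limiting enzyme of bile acid synthesis, was at 114, 166 and 183 CPM and 146, 165 and 61.6 CPM, which overlapped (-0.31 ± 0.38, adjusted p = 0.719), and *Cyp8b1*, which sets the share of cholic acid, overlapped as well (-0.17 ± 0.32, adjusted p = 0.835). Of 24 genes of retinoid storage and clearance 2 rose (1 without GC2, MG1 or MG2) and 3 fell. *Cyp26b1*, which breaks down retinoic acid, was at 3.71, 5.65 and 1.12 CPM in GC mice and 19.8, 20.6 and 15.5 CPM in MG mice (2.39 ± 0.46, adjusted p = 0.0161). *Cyp26b1* no longer passed without GC1, MG1 or MG2.

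In the lists of sulfur, glutathione and redox genes, the subject of the study, between 8% and 20.7% of the members tested passed, against 3.33% of all genes, in part with changes that depended on single mice. Of 25 genes of the methionine cycle 2 rose, *Mat1a*, which makes S-adenosylmethionine (3244, 3394 and 3068 CPM in GC mice, 4415, 4754 and 4494 CPM in MG mice, 0.49 ± 0.12, adjusted p = 0.0431 in edgeR), and *Dmgdh*, a mitochondrial dehydrogenase of dimethylglycine (0.61 ± 0.15, adjusted p = 0.0489). The groups did not overlap, but the count was 0 without any one GC mouse, any one MG mouse or A1G2 and 1 without A1G3. Of 24 genes of trans-sulfuration, taurine and sulfide 1 rose (3 without GC3, none without GC2, MG1 or MG2) and 1 fell (none without MG2). *Cbs*, which starts trans-sulfuration, was at 246, 266 and 324 CPM and 337, 407 and 429 CPM (0.49 ± 0.14, adjusted p = 0.0763), and *Cth*, which releases cysteine, at 262, 310 and 317 CPM and 319, 474 and 346 CPM (0.36 ± 0.18, adjusted p = 0.312), so that neither passed. Of 23 genes of glutathione synthesis and turnover 2 rose (none without GC2 or any one MG mouse) and 1 fell. The gene that fell, *Nat8f5*, a relative of the acetyltransferase of cysteine conjugates, was at 31.9, 25.6 and 27.1 CPM in GC mice and 7.68, 7.74 and 3.30 CPM in MG mice (-2.16 ± 0.27, adjusted p = 0.00156), and it passed whichever library was left out. *Gclm*, the modifier subunit of the enzyme that starts glutathione synthesis, rose by 0.52 ± 0.11 (adjusted p = 0.0232), while the catalytic subunit *Gclc* was at 166 to 271 and 240 to 355 CPM (0.41 ± 0.24, adjusted p = 0.392).

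Among 25 glutathione S-transferases none rose and 2 fell (8%, against 2.15% of all genes). *Gstp1* (chromosome 19: 4035407-4037985), the pi-class enzyme, which is male-biased in mouse liver, was at 1101, 1080 and 1154 CPM in GC mice and 484, 455 and 305 CPM in MG mice (-1.42 ± 0.27, adjusted p = 0.0156 in edgeR), and A1G mice spread from 671 to 1576 CPM. *Gstm6* fell by 0.93 ± 0.15 (adjusted p = 0.00728). *Gstp1* did not pass without GC2, MG2 or MG3, and 1 of the 25 fell without GC2 or MG2. Of 31 peroxiredoxins, dismutases and selenium-related proteins none rose and 4 fell (1 without GC2, MG1 or MG3 and 2 without GC1, A1G2, A1G3 or MG2). The largest fall was that of *Selenbp2*, a selenium-binding protein that is male-biased in mouse liver (1164, 1443 and 884 CPM, then 89.7, 212 and 61.5 CPM, -3.26 ± 0.63, adjusted p = 0.0168), which did not pass without GC2, MG1 or MG3. The smallest p was that of *Dio1*, the selenoenzyme that activates thyroid hormone (183, 113 and 119 CPM, then 33.4, 28.7 and 49.99 CPM, -1.90 ± 0.26, adjusted p = 0.00267). Of 29 genes in the NRF2 and thiol-redox list 2 rose (none without GC2 or any one MG mouse, 4 without A1G1) and 4 fell. Those that fell were *Me1*, *Pgd*, *Taldo1* and *Tkt*, of which *Me1* and *Pgd* make NADPH. *Hmox1*, the stress-inducible haem oxygenase, was at 11.3 to 17.6 and 16.3 to 17.6 CPM (0.27 ± 0.17, adjusted p = 0.424). The metallothioneins *Mt1* (0.96 ± 0.46, adjusted p = 0.29) and *Mt2* (1.07 ± 0.51, adjusted p = 0.286) overlapped between the groups.

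Secreted defence proteins moved both ways. Of 36 acute phase proteins 7 rose, against 1.17% of all genes. The count was 3 of 36 without MG1 and 4 without GC1, GC2, MG2 or MG3. Of 28 complement factors 1, *C3*, rose and 2 fell, with 7 lower when A1G1 was left out and 1 when GC1, GC2 or any one MG mouse was. *C6*, part of the pore that complement builds, was at 337, 368 and 404 CPM in GC mice and 90.6, 126 and 82.8 CPM in MG mice (-1.89 ± 0.27, adjusted p = 0.00379 in edgeR), and *C9*, the last member of that pore, fell by 1.16. Antigen presentation leaned down. Of 28 MHC genes none rose and 3 fell, against 2.15% of all genes, with 26 below 0 and a median of -0.37 (-0.10 and 15 of 26 on TPM values). The 3 were the non-classical class I genes *H2-Q6* (37.1, 42.2 and 34.98 CPM, then 12.4, 13.6 and 13.05 CPM, -1.55 ± 0.20, adjusted p = 0.002), *H2-Q7* (-1.26 ± 0.20, adjusted p = 0.00507) and *H2-Q10* (2658, 2220 and 2157 CPM, then 1287, 1373 and 1266 CPM, -0.84 ± 0.13, adjusted p = 0.00507), which are close copies of one another and can share reads. Of 39 interferon-stimulated genes 1 fell (3 without A1G1, 2 without A1G3), which is 2.56%, against 2.15% of all genes. Their median was -0.37 with 30 below 0 (-0.04 and 18 of 35 on TPM values). The gene that fell was *Bst2*, the virus-tethering protein (153, 124 and 105 CPM, then 54.1, 65.7 and 57.5 CPM, -1.11 ± 0.15, adjusted p = 0.00267). The number of MHC genes that fell was 5 without A1G1.

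Cell division and matrix genes were read at low levels in both groups. Of 26 cell cycle and DNA replication genes 1 fell (3 without MG3, 2 without A1G1), *Rrm2*, a subunit of ribonucleotide reductase (12.7, 9.69 and 7.87 CPM, then 2.66, 3.67 and 4.62 CPM, -1.47 ± 0.25, adjusted p = 0.00873 in edgeR). The list median was -0.63, and on TPM values it was 0.05, where that of all genes was 0.24. The collagen genes *Col1a1* (3.71, 4.41 and 3.05 CPM, then 0.866, 1.08 and 1.32 CPM, -1.79 ± 0.38, adjusted p = 0.0258) and *Col1a2* (-1.22 ± 0.27, adjusted p = 0.0288) fell, the only 2 of 11 stellate cell and fibroblast markers that passed. The summed TPM of these markers was 217 to 254 in GC mice and 233 to 253 in MG mice. *Col1a1* did not pass without GC1, GC2, MG1 or MG2.

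Small shifts in large complexes are given beside the median of all genes, which was 0.00 with TMM and 0.24 on TPM values. Of 82 cytosolic ribosomal protein genes 78 were below 0 with a median of -0.23, but 1 passed (1.22%, against 3.33% of all genes). On TPM values their median was 0.04 with 51 above 0. Without GC3 the number that fell was 12, and it was 0 without GC1, GC2, A1G3 or any one MG mouse. Of 75 nuclear genes of oxidative phosphorylation 73 were below 0 with a median of -0.30 and 3 passed, against -0.04 and 45 of 75 below 0 on TPM values, and the number that fell was 18 without GC3 and 0 without GC1, GC2, A1G3, MG1 or MG2. The 13 mitochondrially encoded proteins had a median of -0.02 with none passing, 0 at an unadjusted p under 0.05, 0 in DESeq2 and 2 higher in limma on log2(TPM + 1). Of 23 genes of the circadian clock none passed in edgeR, while 2 higher and 2 lower had an unadjusted p under 0.05, and DESeq2 called 1 lower. Of 24 genes of insulin receptor, IRS and FOXO signalling none passed, while 4 higher and 2 lower had an unadjusted p under 0.05, and DESeq2 called 1 higher and 1 lower. Of 21 p53 targets and DNA damage genes none passed, against 4 lower at an unadjusted p under 0.05 and 0 in DESeq2, and of 18 immediate early genes none passed, against 3 higher at that p and 2 higher in DESeq2. With 3 mice per group this does not show that these genes were equal.

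**Figure D5:**
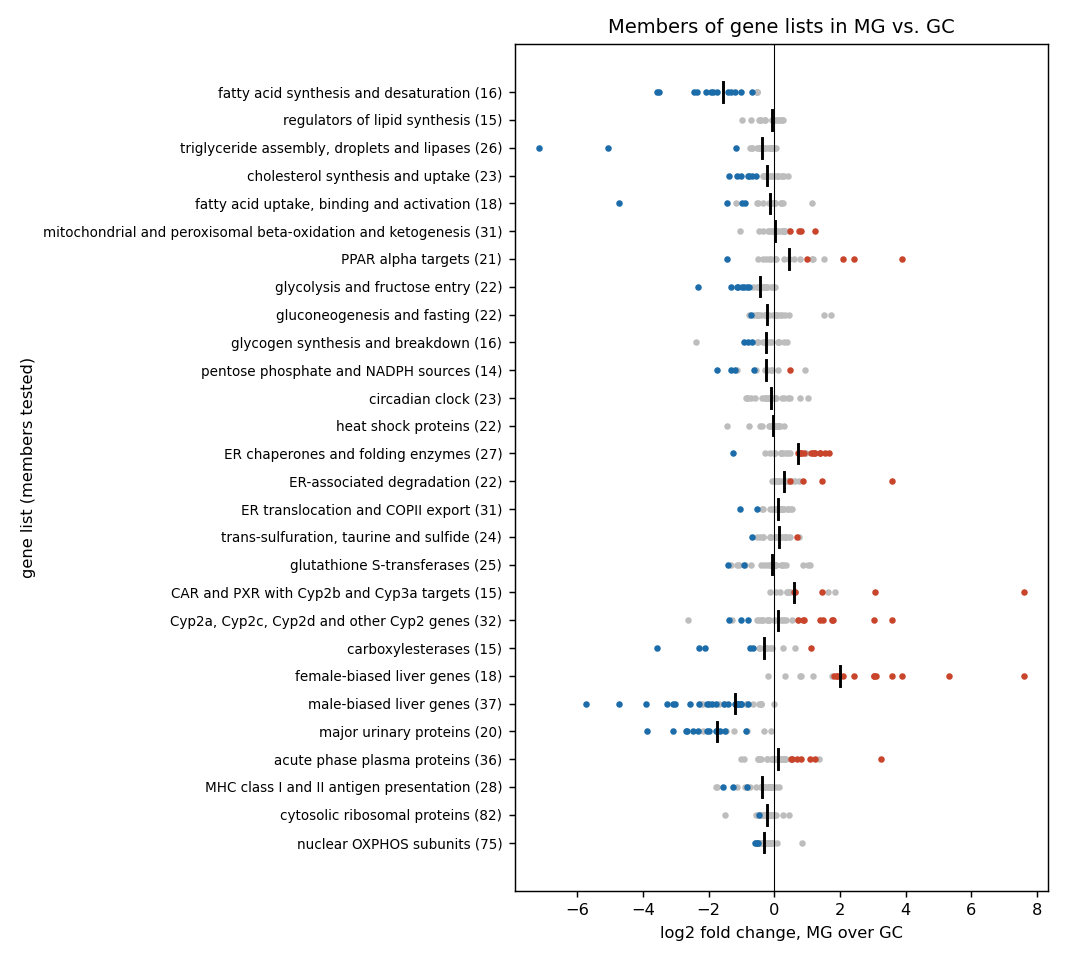
Log2 fold change of MG over GC of every tested member (1 point per gene) of 28 gene lists, 1 line per list with the number tested in brackets and the list median as a bar. Red (higher in MG) and blue (lower in MG) points passed an adjusted p of 0.05 in edgeR. All 16 fatty acid synthesis genes lie below 0, and 22 of 27 ER chaperones and folding enzymes lie above it.

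Several genes outside all lists were among those of smallest p. *Hes6*, a transcriptional regulator of the Hes family, was at 85.8, 90.9 and 85.8 CPM in GC mice and 33.3, 37.6 and 34.2 CPM in MG mice (-1.32 ± 0.12, adjusted p = 0.000388 in edgeR). *Cyb5r3*, the cytochrome b5 reductase that hands electrons to fatty acid desaturases, was at 717, 753 and 587 CPM and 259, 284 and 262 CPM (-1.35 ± 0.15, adjusted p = 0.000689). The MG mice lay close together in both genes, which passed whichever library was left out. *Atg16l2*, a relative of an autophagy protein, was at 44.8, 39.8 and 44.2 CPM and 8.49, 10.3 and 9.16 CPM (-2.20 ± 0.25, adjusted p = 0.000901). *Chrna4*, which encodes a nicotinic receptor subunit, and *Gm19572*, a gene model of unknown role, had few counts in MG mice. *Chrna4* was at 10.1, 12.3 and 5.58 CPM in GC mice and 0.0578, 0.196 and 0 CPM in MG mice, and *Gm19572* at 2.64, 2.34 and 3.35 CPM and 0.0578, 0 and 0.0733 CPM.

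The A1G mice were on the same flight as the MG mice and were spun at 1 g on board the station, but like them went through launch and landing, and through weightlessness on the way there and back. In the same edgeR fit 85 genes (0.644%) passed between A1G and GC mice and 10 (0.0758%) between MG and A1G mice, comparisons that share their libraries with MG vs. GC and are therefore given only side by side. Of the 10, *Acacb* and *Me1* were lower in MG than in A1G mice by 1.37 ± 0.19 (adjusted p = 0.0402) and 1.16 ± 0.18 (adjusted p = 0.0423) on the log2 scale. *Me1* was at 375, 224 and 274 CPM in A1G mice, so that the A1G mice lay between the 2 other groups without overlap. *Cyp2c68*, a further gene of the Cyp2c cluster, was at 207, 251 and 178 CPM in GC mice, 215, 164 and 206 CPM in A1G mice and 357, 424 and 401 CPM in MG mice (1.02 ± 0.15 in MG vs. A1G, adjusted p = 0.0412). *Cd276*, an immune checkpoint protein, was lower in MG mice, at 0.866, 0.686 and 0.953 CPM, than in GC mice at 2.25, 3.12 and 2.29 CPM and A1G mice at 3.41, 2.91 and 3.04 CPM. This direction held on counts but not on TPM, where the change in MG vs. GC was 0.51 to 0.70 above 0 in limma and did not pass. For *Fasn* the A1G mice were at 750, 840 and 598 CPM and for *Hsp90b1* at 1604, 908 and 1355 CPM, in both cases between the GC and the MG mice, and neither passed in MG vs. A1G.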

How the data were processed

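Stranded libraries of poly(A) RNA, 1 liver piece per mouse, were read on a NovaSeq. Per the labels, the authors used fastp 0.19.4 for the reads and Salmon 0.9.1 for quantification on GRCm38. The authors deposited estimated counts per gene, of which 17.1% of values were not whole, and TPM. The annotation release is not given in the sources used here, and coordinates are from GENCODE M21, which held 13166 of the tested genes. The deposited tables of the authors' own DESeq2 comparisons (fold changes and p-values) were not used.

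Counts were rounded and fitted for all 9 libraries in edgeR 4.0.16 (R 4.3.3), after filterByExpr (minimum count 10) and TMM scaling, with 1 coefficient per group. The quasi-likelihood F test had 6 residual and 5.7 prior degrees of freedom (common dispersion 0.0333), and p-values were adjusted by Benjamini-Hochberg over all genes tested. Standard errors are the absolute log2 fold change over the square root of F. The procedure was tested on simulated data. The 6 libraries compared held 13189515 to 23506273 counts, and each is a separate mouse. The test sets the difference between groups against the spread between mice. This spread was pooled over all 9 libraries, A1G mice included, and moderated across genes. The members, lists and tests were chosen with earlier results of these data known. Genes named were up to 12 per direction of the largest change among those that passed (mean of at least 50 counts, no overlap), up to 6 per list, up to 6 in no list, and others chosen after their values were seen. Some genes are not reported here. Lists were described by counts and medians, and not tested. Promoters are from RefSeq (GRCm38.p6, 32851 promoters of 27025 genes), and 5 motifs were searched. Shares of counts were compared with an exact two-sided permutation test. Alternatives were RLE and library size scaling, other filters, the 6 libraries alone, a replicate block, DESeq2 1.42.0 on 6 libraries, limma 3.58.1 on log2(TPM + 1) and log2(TPM + 0.1), a log2 fold change of at least 1, and each library left out in turn.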

Additional observations from a re-analysis of the deposited data

How the results depend on the processing

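The number of genes that passed in MG vs. GC was 439 (155 higher, 284 lower). It was 803 (294 higher, 509 lower) with no filter on low counts and 810 (307 higher, 503 lower) in DESeq2 on the 6 libraries, of which 429 and 424 were among the 439. With library size only, 350 were higher. In limma on log2(TPM + 1) 524 were higher and 121 lower, on log2(TPM + 0.1) 530 and 122, and without a filter on TPM 261 passed, 63 of them lower. With a change of at least 1 on the log2 scale required, it was 202 (57 higher, 145 lower). Leaving out each library in turn gave 181 to 642 genes, 59 to 245 higher and 122 to 397 lower. RLE size factors, the stricter filter and the 6 libraries alone gave counts within 1.5 times of these. Equal replicate numbers did not pair the mice (correlations of their residuals -0.00269, 0.042 and 0.045 for replicates 1 to 3), and a replicate block gave 509 genes (188 higher, 321 lower), 404 of them shared. As a share of TPM in place of counts, the log2 ratio of MG to GC was 0.0238 in place of -0.0949 for ribosomal proteins, 0.186 in place of 0.0615 for mitochondrially encoded proteins and -2.21 in place of -2.48 for fatty acid synthesis. *Cd276* turned to 0.51, 0.70 and 0.51 in the limma fits on log2(TPM + 1), log2(TPM + 0.1) and log2(TPM + 1) with no filter, none past the threshold. The cause of these differences was not tested.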

Other observations

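*Gm45808*, an unannotated gene model on chromosome 7 (45465984-45486811) that overlaps *Bax* and *Dhdh* on the same strand, had 0 counts in all 3 GC mice and 132 in the 3 MG mice together, at 1.79, 3.18 and 2.64 CPM, and 1.17, 3.22 and 2.32 CPM in the A1G mice. Against a floor of 3 counts over the group, it was at least 50.8-fold higher in MG than in GC mice (adjusted p = 0.00156 in edgeR). Reads of the overlapping genes can be assigned to it.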
